A study of Mus musculus with 21 samples.

Results

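The 3 Foxa paralogs were mapped in established hepatocyte-like (iHep) cells by chromatin immunoprecipitation followed by sequencing (ChIP-seq). The peak lists compared here are those of the iHep libraries precipitated for Foxa1, Foxa2 and Foxa3. They hold 3435, 10330 and 12661 peaks, or 26426 of the 53537 peaks in the 13 lists of the series. All cells were C57BL/6 mouse embryonic fibroblasts prepared at 13.5 days post coitum and infected with retroviruses. The Foxa1 line received Foxa1 and Hnf4alpha, the Foxa2 line Foxa2 and Hnf4alpha, and the Foxa3 line Foxa3 and Hnf4alpha, so every line carried Hnf4alpha. Each paralog was thus mapped in a different line and with an antibody named for it, and paralog, antibody, line and library cannot be told apart. The titles carry the codes R225 for Foxa1, R215 for Foxa2 and R170 for Foxa3, and the number 3 in the Foxa3 line against 1 in the others. The codes' meaning is not given. There is 1 library per paralog, so no replicate spread and no p-values are given. Sequencing depth is unknown. The series labels all samples as fibroblasts, and peak lists hold no expression with which to check the iHep stage.

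Foxa proteins are forkhead transcription factors whose winged-helix domain binds DNA. They are called pioneer factors because they can bind sites in closed chromatin and open them to other factors. Foxa1 and Foxa2 act redundantly in the onset of liver development, and Foxa3 is expressed in the liver from later on. Hnf4alpha is a nuclear receptor needed for the hepatocyte programme. It can turn fibroblasts into hepatocyte-like cells together with any 1 of the 3 Foxa proteins.

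The lists differed first in the shape of their peaks. Foxa3 peaks were narrower than those of Foxa1 and Foxa2 at the median, yet had a longer tail of very wide peaks. The median width was 412 bp for Foxa1 (95% interval 408 to 416), 461 bp for Foxa2 (458 to 464) and 248 bp for Foxa3 (244 to 251). Among the 3435 best scoring peaks of each list it was 412, 567 and 385 bp, and merging peaks up to 500 bp apart gave 368 bp for Foxa3. The middle 50% of peaks ran from 354.5 to 481 bp for Foxa1, from 388 to 547 bp for Foxa2 and from 192 to 387 bp for Foxa3. At the wide end the order turned around. Only 4 Foxa1 peaks (0.116%) and 59 Foxa2 peaks (0.571%) exceeded 1 kb, against 461 Foxa3 peaks (3.64%). No Foxa1 or Foxa2 peak exceeded 2 kb, while 89 Foxa3 peaks did. The widest peak was 1296 bp for Foxa1, 1390 bp for Foxa2 and 10265 bp for Foxa3. In all, Foxa1 peaks covered 1.47 Mb, Foxa2 peaks 4.99 Mb and Foxa3 peaks 4.55 Mb. The intervals of medians and shares throughout take in counting error alone, and peaks close to each other are not independent.

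Each list also had a sharp lower bound on width. The narrowest peak was 311 bp for Foxa1, 325 bp for Foxa2 and 166 bp for Foxa3, and 146, 245 and 662 peaks had exactly that width. The Hnf4alpha lists of the same lines had lower bounds of 200, 272 and 156 bp for the Foxa1, Foxa2 and Foxa3 lines. The Foxa3 line therefore had the smallest bound with both antibodies. What part this has in the width of its peaks was not tested.

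The score that the authors deposited for each peak served only to rank peaks within a list, since its scale is not given. In the Foxa1 and Foxa2 lists score and width went together, with a Spearman rho of 0.77 over 3435 peaks and 0.76 over 10330 peaks. In the Foxa3 list rho was 0.41 over 12661 peaks. These are descriptions over the peaks of 1 library each. From the lowest to the highest scoring 25%, the median width rose from 339 to 513 bp for Foxa1 and from 368 to 585 bp for Foxa2. In the Foxa3 list the median width also rose at each step from the lowest to the highest of these 4 score classes. It reached 245 and 394 bp in the upper 2 of them.

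**Figure D1:**
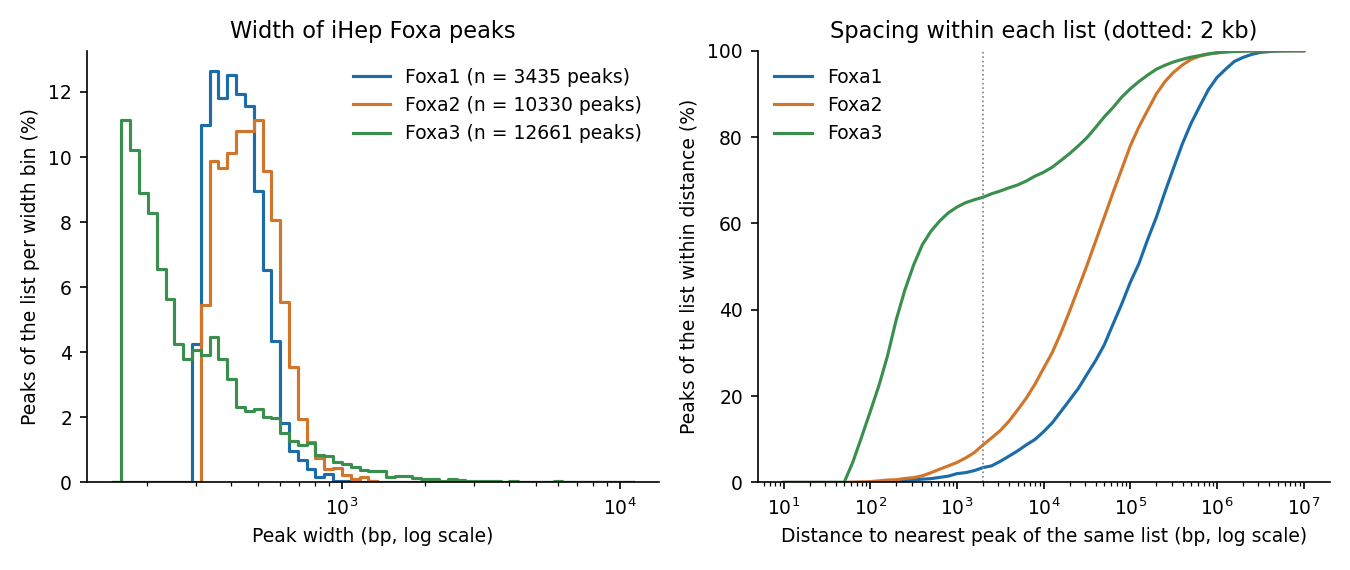
Left, share of each list's peaks (%) by peak width (bp, log scale) for Foxa1, Foxa2 and Foxa3 in iHep cells; right, share of peaks (%) whose nearest peak of the same list lies within a distance (bp, log scale). Foxa3 peaks start at 166 bp with a tail to 10265 bp, and 66.1% of them have a neighbour within 2 kb (dotted line), against 3.44% for Foxa1 and 8.68% for Foxa2.

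Most Foxa3 peaks lay close to another Foxa3 peak, and few Foxa1 or Foxa2 peaks had such a neighbour. Of the Foxa3 list, 8365 peaks had another within 2 kb (66.1%, 65.2% to 66.9%). In the Foxa2 list 897 did (8.68%, 8.16% to 9.24%), and in the Foxa1 list 118 (3.44%, 2.88% to 4.10%). The median gap between neighbouring peaks was 306117 bp for Foxa1, 79191 bp for Foxa2 and 13398 bp for Foxa3, although Foxa3 had only 1.23 times as many peaks as Foxa2. With each list reduced to its 3435 best scoring peaks, 3.44% of Foxa1, 3.29% of Foxa2 and 23.5% of Foxa3 peaks had a neighbour within 2 kb, and the median gap was 275390 bp for Foxa2 and 163372 bp for Foxa3. With peaks up to 500 bp apart merged, the Foxa3 share was 18.6% and its median gap 65603 bp. The Hnf4alpha list of the Foxa3 line was also clustered. Of its 2506 peaks 40.4% (38.5% to 42.3%) had a neighbour within 2 kb, while the lines made with Foxa1 and Foxa2 had 4.87% and 8.69%. Close spacing was thus seen with both antibodies in the Foxa3 line, whose Foxa3 and Hnf4alpha libraries share the code R170. In the Foxa1 line both carry R225, and in the Foxa2 line the Hnf4alpha library carries R242 and the Foxa2 library R215. Line and code cannot be told apart in the Foxa3 line.

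When peaks up to 2 kb apart were joined into runs, the Foxa3 list formed 7368 separate sites, the Foxa2 list 9869 and the Foxa1 list 3376. Foxa2 then held more sites than Foxa3. Of the Foxa3 peaks 4296 (33.9%) stood alone, 6830 (53.9%) lay in runs of 2 to 4, 1218 (9.62%) in runs of 5 to 9 and 317 (2.50%) in 23 runs of 10 or more. The median span of these classes of run was 992 bp, 4441 bp and 12424 bp. No Foxa1 run had more than 2 peaks and no Foxa2 run more than 4. The Foxa3 run with the most peaks, on chromosome 19 at 5812430 to 5850576 (genome build mm9), held 42 peaks over 38147 bp, the best of them 4th in the list by score. The widest Foxa3 peak lay beside it, at 5793849 to 5804113. The nearest Foxa2 peak was 193 kb from the run and the nearest Foxa1 peak 1039 kb. In the lowest scoring 25% of Foxa3 peaks 75.9% had a neighbour within 2 kb, against 58.8% to 65.0% in the other score classes. Clustering was thus most frequent among weak Foxa3 peaks, and it was present at all scores.

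The paralogs also differed in how their peaks were spread over the chromosomes. Foxa3 peaks took a larger share of chromosomes 17, 11, 7 and 19 than those of Foxa1 and Foxa2 did. On chromosome 11 lay 8.97% of the Foxa3 list (8.49% to 9.48%), against 5.02% for Foxa2 (4.62% to 5.46%) and 5.24% for Foxa1 (4.54% to 6.04%). Chromosome 17 held 5.93% of Foxa3 peaks, 3.03% of Foxa2 peaks and 2.65% of Foxa1 peaks. The Foxa3 share was 1.958 times the Foxa2 share on chromosome 17, 1.79 times on chromosome 11, 1.45 times on chromosome 7 and 1.35 times on chromosome 19. It was lowest relative to Foxa2 on chromosome X (0.630 times), chromosome 18 (0.675) and chromosome 13 (0.678). On 13 of 20 chromosomes the intervals of Foxa2 and Foxa3 were apart, with Foxa3 higher on 5 and lower on 8. The intervals of Foxa1 and Foxa2 overlapped on all 20. With runs joined, the Foxa3 share was 1.76 times the Foxa2 share on chromosome 17, 1.75 times on chromosome 11, 1.47 times on chromosome 7 and 1.23 times on chromosome 19. The lowest ratios were then on chromosome 13 (0.636), chromosome 3 (0.664) and chromosome 18 (0.678), with 0.728 on chromosome X.

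**Figure D2:**
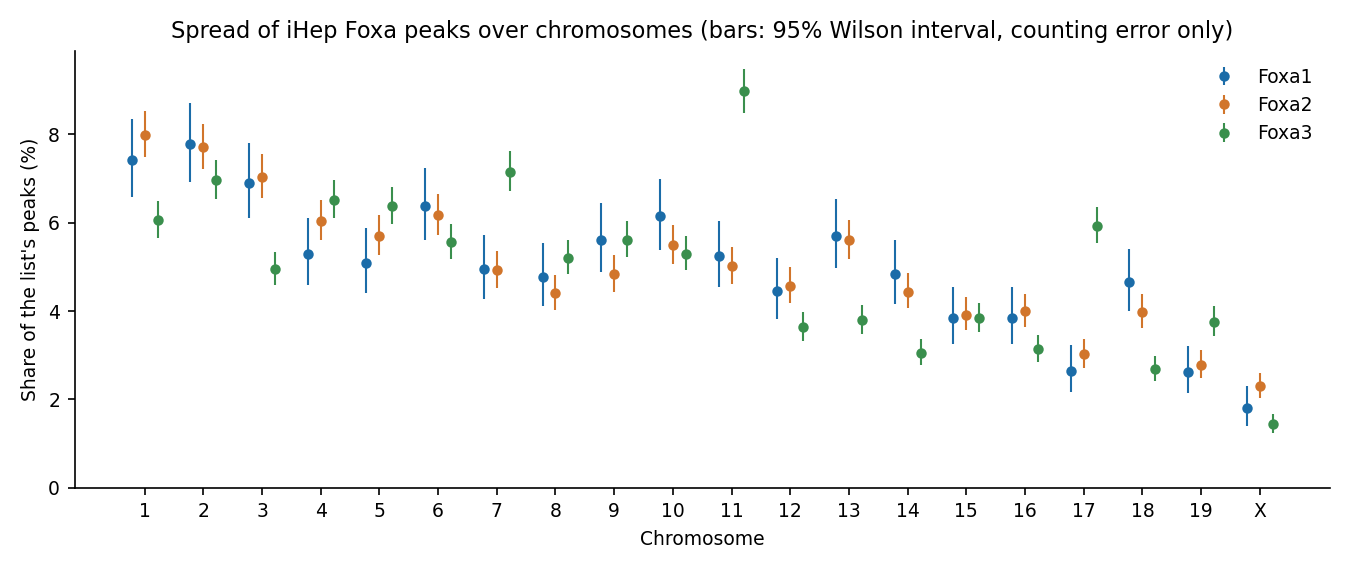
Share of each iHep Foxa list (%) on each chromosome, with points for the 3 lists and bars for the 95% Wilson interval (counting error only). Foxa1 and Foxa2 run together on all 20 chromosomes, while Foxa3 stands above both on chromosomes 7, 11, 17 and 19.

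Set against the length of chromosome between the outermost iHep peaks, Foxa3 density ran from 1.12 peaks per Mb on chromosome X to 9.56 on chromosome 11. Foxa2 density ran from 1.45 on chromosome X to 4.95 on chromosome 13. Foxa1 density ran from 0.380 on chromosome X to 1.83 on chromosome 18. Chromosome X was the sparsest for every paralog. In windows of 1 Mb the numbers of Foxa1 and Foxa2 peaks went together, with a Spearman rho of 0.65 over 2146 windows that held a peak of any of the 3 lists. The rho was 0.18 for Foxa1 with Foxa3 and 0.23 for Foxa2 with Foxa3. Joining runs left these at 0.65, 0.16 and 0.21. The windows share libraries and differ in how much of them can be mapped, so the values describe the lists only. The densest window held 13 Foxa1 peaks, 25 Foxa2 peaks or 75 Foxa3 peaks.

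The central comparison asks whether the paralogs were found at the same sites once the cells had become hepatocyte-like. Foxa1 peaks were largely a subset of Foxa2 peaks, and Foxa3 peaks were almost entirely elsewhere. Of the Foxa1 peaks 2929 (85.3%) overlapped a Foxa2 peak by at least 1 bp, and 2920 Foxa2 peaks (28.3%) overlapped a Foxa1 peak. Of the Foxa3 peaks 255 (2.01%, 1.78% to 2.27%) overlapped a Foxa2 peak and 65 (0.513%, 0.403% to 0.654%) a Foxa1 peak. Foxa3 peaks alone thus made up 98.0% of their list, against 70.1% for Foxa2 peaks alone and 14.7% for Foxa1 peaks alone. The share of Foxa1 peaks at Foxa2 ranged from 79.7% on chromosome 12 (72.7% to 85.3%) to 94.4% on chromosome 19 (87.6% to 97.6%). Foxa3 peaks at Foxa2 peaks ranged from 1.02% on chromosome 2 to 3.10% on chromosome 14.

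How many Foxa1 peaks were shared depended on how much of the Foxa2 list was counted. The best scoring 1000 Foxa2 peaks covered 24.6% of Foxa1 peaks, the best 2000 covered 42.1%, the best 4000 covered 62.2%, the best 8000 covered 80.4% and the whole list 85.3%. When the same number of peaks was taken from the top of both lists, 41 of the best 100 Foxa1 peaks lay at 1 of the best 100 Foxa2 peaks. The shared number was 249 of the best 500 and 556 of the best 1000. For Foxa3 with either of the other paralogs it was 0 of 500 (upper Wilson bound 0.762%) and 1 of 1000 (0.1%, 0.0177% to 0.564%). All of the best 100 Foxa1 peaks overlapped some Foxa2 peak, and all of the best 100 Foxa2 peaks overlapped some Foxa1 peak. Of the best 100 Foxa3 peaks 3 overlapped a Foxa2 peak and 1 a Foxa1 peak.

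Between Foxa1 and Foxa2, sharing rose with the score. Among Foxa2 peaks the share at a Foxa1 peak rose in each step from 6.12% in the lowest scoring 10% to 83.7% in the highest scoring 10%. Among Foxa1 peaks the share at a Foxa2 peak rose from 72.2% to 99.4%. Foxa1 peaks without Foxa2 were accordingly weak, with a median score percentile of 26.5 within their list against 55.4 for those with Foxa2. Foxa2 peaks without Foxa1 had a median percentile of 39.4, against 80.3 for those with Foxa1. The Foxa2 peaks without Foxa1 were also narrower, with a median of 432 bp against 548 bp for those with Foxa1.

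Sharing between Foxa2 and Foxa3 did not follow the scores in this way. Foxa2 peaks at a Foxa3 peak made up between 1.54% and 2.93% of each 10% of the Foxa2 list, in no order, and 2.61% of the highest scoring 10%. Their median percentile was 50.1, beside 49.995 for the Foxa2 peaks without Foxa3. The 59 Foxa1 peaks at a Foxa3 peak did score higher within their list, with a median percentile of 70.4 against 49.4. Seen from Foxa3, the shared peaks did not stand out in score, with a median percentile of 48.6 for those at Foxa2 and 41.2 for those at Foxa1. The Foxa3 peaks at Foxa2 were wider than the other Foxa3 peaks, at a median of 321 bp against 247 bp. Those at Foxa1 differed little in width, at 263 bp against 248 bp. The part of width in the sharing was not tested.

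**Figure D3:**
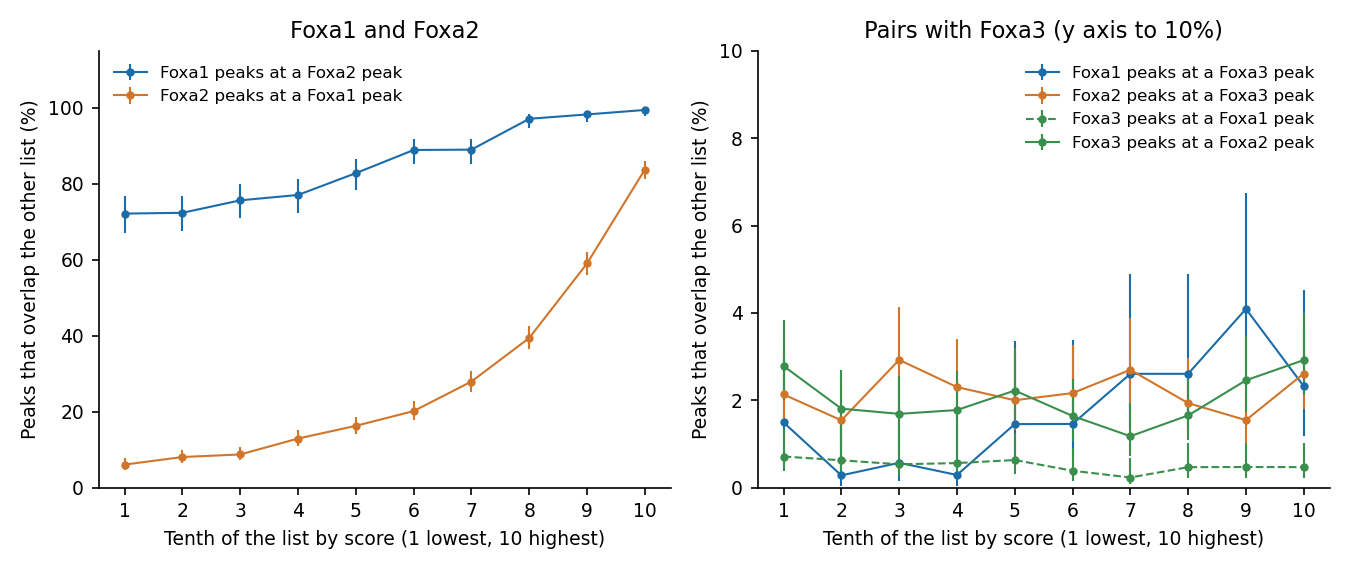
Share of a list's peaks (%) that overlap a peak of another paralog, for each 10% of the list from the lowest to the highest scores, with 95% Wilson intervals (counting error only). On the left, Foxa2 peaks at a Foxa1 peak climb from 6.12% to 83.7%; on the right, on an axis that ends at 10%, pairs with Foxa3 stay between 0.236% and 4.09%.

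Runs of Foxa3 peaks met Foxa2 peaks more often than single Foxa3 peaks did when the whole stretch was counted. A Foxa2 peak lay in 78 of 4296 single peaks (1.82%, 1.46% to 2.26%), in 116 of 2846 runs of 2 to 4 (4.08%, 3.41% to 4.87%) and in 33 of 226 runs of 5 or more (14.6%, 10.6% to 19.8%). The longer runs also span more sequence, as given above. Counted peak by peak, 2.12% of Foxa3 peaks with a neighbour within 2 kb and 1.82% of those without overlapped a Foxa2 peak, with intervals that overlap.

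At the sites they shared, Foxa1 and Foxa2 peaks lay on top of each other. The 2920 pairs had centres a median of 28 bp apart, 74.5% within 50 bp and 98.7% within 200 bp. The Foxa2 peak was the wider in 2569 pairs (88.0%), and in the median pair the shorter peak lay wholly inside the longer. Foxa3 peaks overlapped the others off centre. The 224 pairs with Foxa2 had centres a median of 218 bp apart, with 22 (9.82%) within 50 bp and 107 (47.8%) within 200 bp. The 59 pairs with Foxa1 were a median of 204 bp apart, with 7 (11.9%) within 50 bp. The Foxa3 peaks in the pairs with Foxa2 had a median width of 341 bp and those in the pairs with Foxa1 of 294 bp, and in the median pair 72.3% and 70.4% of the shorter peak was overlapped.

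Scores at shared sites ranked alike for Foxa1 and Foxa2 and not for pairs with Foxa3. The Spearman rho was 0.54 over 2920 pairs of Foxa1 and Foxa2. It was -0.18 over 59 pairs of Foxa1 and Foxa3 and -0.06 over 224 pairs of Foxa2 and Foxa3. When pairs were formed anew from all peaks with centres within 200 bp, these were 0.07 over 31 pairs and 0.03 over 119. The partners of Foxa1 peaks rose through the Foxa2 list with the Foxa1 score. Their median Foxa2 percentile was 60.96 for the lowest scoring 25% of the Foxa1 list, then 71.3, 81.8 and 93.1. Of 847 paired Foxa1 peaks in the highest scoring 25%, 732 had a Foxa2 partner in the highest scoring 25% of its own list and 11 in the lowest. The opposite combination, a Foxa1 peak in the lowest 25% with a Foxa2 peak in the highest, was found in 201 pairs. For Foxa2 and Foxa3, 14 of 50 paired Foxa2 peaks of the highest 25% met a Foxa3 peak of the highest 25% and 15 met 1 of the lowest.

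**Figure D4:**
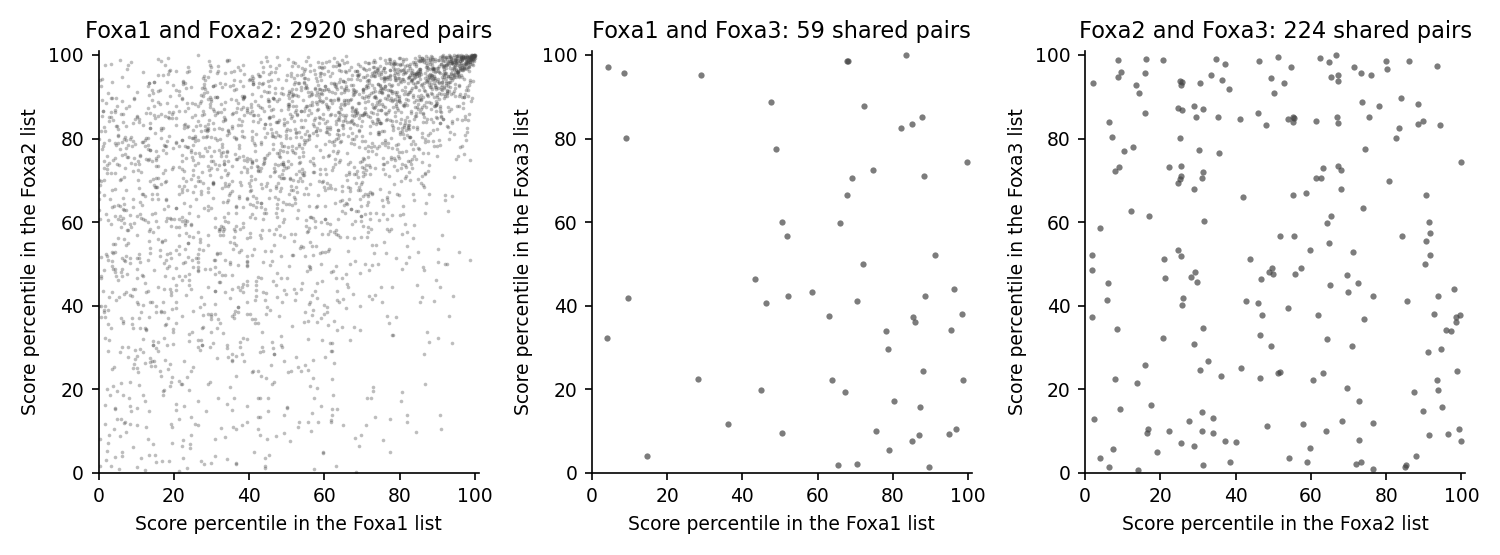
Score percentile of each pair of overlapping peaks within the 2 lists it belongs to (100 is the highest score), for Foxa1 with Foxa2, Foxa1 with Foxa3 and Foxa2 with Foxa3. The 2920 Foxa1 and Foxa2 pairs crowd toward the upper right corner (rho 0.54), while the 59 and 224 pairs with Foxa3 are scattered.

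Peaks that did not overlap the other paralog were mostly far from it. The 506 Foxa1 peaks without a Foxa2 peak lay a median of 58.1 kb from the nearest one (48.2 to 71.0 kb), and 14 of them lay within 1 kb. The 10104 Foxa2 peaks without Foxa3 were a median of 111 kb from a Foxa3 peak, and the 12406 Foxa3 peaks without Foxa2 were 54.1 kb from a Foxa2 peak. The 12596 Foxa3 peaks without Foxa1 were 197 kb from a Foxa1 peak. Within 1 kb of a Foxa2 peak lay 446 of those Foxa3 peaks (3.60%), beside the 255 that overlapped one. Counted from the Foxa2 list the numbers were about equal, with 224 peaks within 1 kb of a Foxa3 peak and 226 overlapping one. For Foxa1 peaks at Foxa2 there were 2929 overlaps and 14 near misses. These distances depend on the length of the other list.

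The lists were therefore also compared at equal length (3435 peaks each), where they did not differ in number of peaks. They still differed in clustering, with a neighbour within 2 kb for 3.44% of Foxa1, 3.29% of Foxa2 and 23.5% of Foxa3 peaks. The part of clustering in the distances below was not tested. Of the Foxa1 peaks 83.0% lay nearer to a Foxa2 peak and 16.7% nearer to a Foxa3 peak. Of the Foxa2 peaks 85.5% lay nearer to Foxa1 and 14.1% nearer to Foxa3. Of the Foxa3 peaks 62.9% lay nearer to Foxa2 and 36.7% nearer to Foxa1. Among peaks that did not overlap, the median distance at equal length was 167 kb from Foxa1 to Foxa2 and 153 kb from Foxa2 to Foxa1. It was 273 kb from Foxa1 to Foxa3 and 312 kb from Foxa2 to Foxa3. From Foxa3 it was 200.3 kb to Foxa1 and 224.5 kb to Foxa2, so for Foxa3 the median distance and the count of nearer peaks pointed to different paralogs. Distances run between peak edges, and where a Foxa1 and a Foxa2 peak overlap each other the wider of them, mostly the Foxa2 peak, can lie nearer by its width alone. The part of this in the count was not tested.

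**Figure D5:**
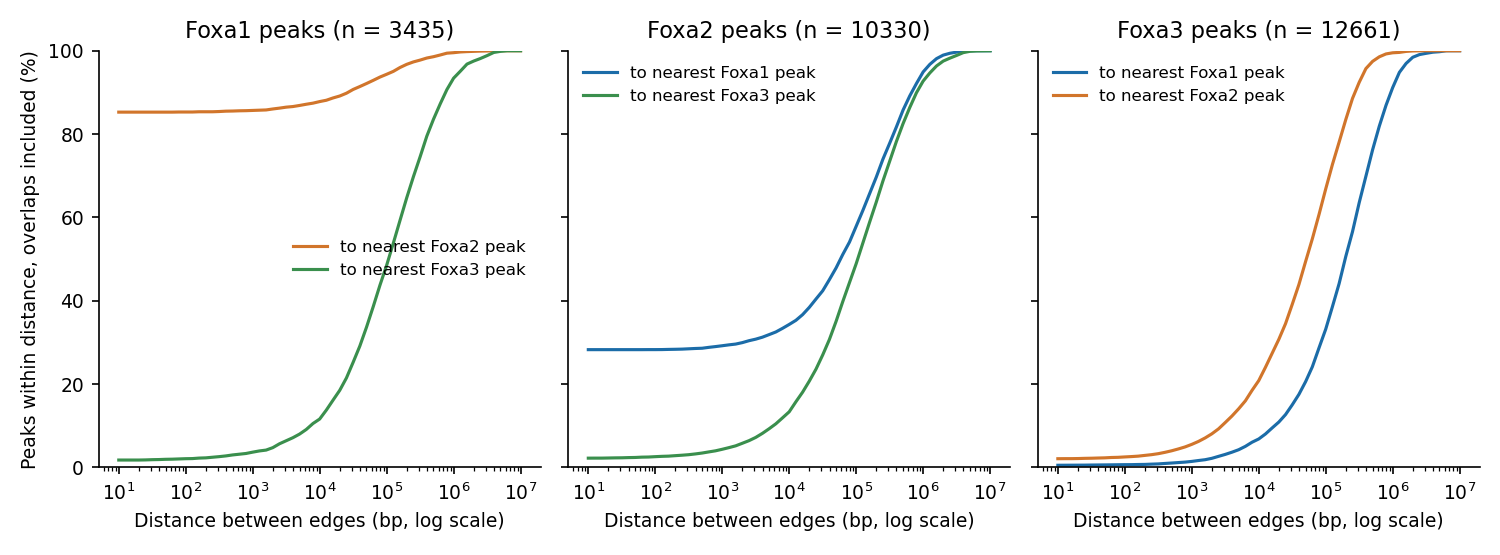
Share of the peaks of each list (%) that lie within a distance (bp, log scale) of the nearest peak of each of the other paralogs, overlaps included. The Foxa1 curve toward Foxa2 starts at 85.3%, whereas curves from or toward Foxa3 stand at 2.23% or less at 10 bp, where the axis begins.

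The regions at the top of the lists show the same division. The best and next best Foxa1 peaks, on chromosome 10 at 86307891 to 86308771 and chromosome 4 at 3734098 to 3734848, were the next best and best Foxa2 peaks. The 3rd Foxa1 peak, on chromosome 1 at 75334261 to 75334926, had rank 71 for Foxa2. The 3rd Foxa2 peak, on chromosome 5 at 68381332 to 68382294, had rank 8 for Foxa1. None of these regions held a Foxa3 peak, and the nearest lay 20.4 to 143 kb away. Among regions held by Foxa1 and Foxa2 and not Foxa3, 1 on chromosome 14 at 100045078 to 100046035 had rank 5 in both lists. Another of them, on chromosome 4 at 120330173 to 120330883, had ranks 10 and 6. Their lack of a Foxa3 peak was set by this choice. The best 3 Foxa3 peaks held neither of the others. They lay on chromosome 11 at 115884470 to 115885880 and at 106648929 to 106649861 and on chromosome 5 at 125865928 to 125871103, with the nearest Foxa2 peak 314, 61.4 and 43.3 kb away.

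The strongest peaks found for a single paralog ranked differently in the 3 lists. For Foxa3 they were the top of the list itself. For Foxa2 the first outside chromosome 18, which was left out of the naming, lay at rank 193. It was on chromosome 8 at 7426399 to 7427065, with a Foxa1 peak 7.07 kb away. For Foxa1 the first lay at rank 333, on chromosome 4 at 117795481 to 117796025, 75.3 kb from a Foxa2 peak and 11.3 kb from a Foxa3 peak.

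Some shared regions were ranked very differently by Foxa1 and Foxa2. A region on chromosome 12 at 96163060 to 96163621 had rank 311 for Foxa1 and 9224 for Foxa2, and 1 on chromosome 2 at 41894562 to 41895093 had ranks 317 and 8883. In the other direction, a region on chromosome 2 at 114698483 to 114699102 had rank 246 for Foxa2 and 3375 for Foxa1, and 1 on chromosome 10 at 32612276 to 32612978 had ranks 219 and 3323. No Foxa3 or iHep Hnf4alpha peak overlapped any of these 4 regions.

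The 61 merged regions held by all 3 paralogs were strong for Foxa1 and Foxa2 and ordinary for Foxa3. Their median percentile was 72.0 in the Foxa1 list, 87.4 in the Foxa2 list and 42.3 in the Foxa3 list. The 2859 regions of Foxa1 and Foxa2 without Foxa3 were already at a median percentile of 55.0 for Foxa1 and 80.1 for Foxa2. The 163 regions of Foxa2 and Foxa3 without Foxa1 had a median percentile of 36.2 for Foxa2 and 56.7 for Foxa3. Foxa1 with Foxa3 but without Foxa2 was found at 2 regions. Among those of the 61 outside chromosome 18, which was left out of the naming, the best summed percentile belonged to chromosome 17 at 35848417 to 35849128. This region had rank 7 for Foxa1, 24 for Foxa2 and 3227 for Foxa3. It was followed by chromosome 8 at 73046701 to 73047568 (ranks 204, 582 and 2112) and chromosome 14 at 17075906 to 17076744 (ranks 405, 1177 and 1486). Chromosome 1 at 180299172 to 180300000 came next (ranks 516, 1201 and 2081). In the fifth, on chromosome 11 at 97660356 to 97664102, the Foxa3 rank was the highest, with rank 189 for Foxa3, 1430 for Foxa2 and 1095 for Foxa1, under a Foxa3 peak 3103 bp wide.

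Hnf4alpha, which all 3 lines carried, gave a readout that did not enter the choice of the Foxa lists. Counted over the 3 lines, its iHep peaks were more frequent at regions held by several paralogs than at those held by 1, except that neither of the 2 regions of Foxa1 and Foxa3 held any. The share was 42.6% (31.0% to 55.1%) at the 61 regions of all 3 paralogs. It was 19.6% (14.3% to 26.4%) at the 163 of Foxa2 with Foxa3 and 11.9% (10.7% to 13.1%) at those of Foxa1 with Foxa2. It was 7.34%, 4.09% and 7.77% at regions of Foxa1, Foxa2 and Foxa3 alone. Regions of several paralogs have more than 1 matching line among the 3, and they were wider. Their median width was 735, 623 and 556 bp in the order above, against 361, 433 and 247 bp for the single paralogs. The part of matching lines and of width in these shares was not tested. An Hnf4alpha peak of the Foxa1 or Foxa2 line was found at 326 of 2859 regions shared by Foxa1 and Foxa2 alone (11.4%, 10.3% to 12.6%). The Foxa2 line's Hnf4alpha peaks lay at 260 of these regions (9.09%, 8.09% to 10.2%) and at 233 of 7245 regions of Foxa2 alone (3.22%, 2.83% to 3.65%). They lay at 10 of the 163 regions of Foxa2 with Foxa3 (6.13%, 3.37% to 10.9%), an interval that overlaps that of Foxa2 alone. The Foxa3 line's lay at 26 of these 163 (16.0%, 11.1% to 22.3%), against 6.72% of regions of Foxa3 alone. The Foxa1 line's lay at 211 of the 2859 regions of Foxa1 with Foxa2 (7.38%, 6.48% to 8.40%). They lay at 31 of 504 regions of Foxa1 alone (6.15%, 4.37% to 8.60%), with intervals that overlap. Within each 25% of the Foxa2 list by score, more Foxa2 peaks with Foxa1 than without it held an Hnf4alpha peak of the Foxa2 line. The shares were 7.53% (4.54% to 12.2%) against 3.79% (3.10% to 4.63%) in the lowest scoring 25%, where the intervals overlap slightly. They were 10.8% (9.37% to 12.3%) against 2.80% (1.90% to 4.10%) in the highest. Over the whole list, Foxa2 peaks with Foxa1 were also wider, at a median of 548 bp against 432 bp. The part of width in these shares, and of score within each 25%, was not tested.

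Regions of Foxa3 alone held Hnf4alpha mainly from the Foxa3 line. It was present at 833 of 12404 (6.72%, 6.29% to 7.17%), against 203 (1.64%) for the Foxa2 line and 147 (1.19%) for the Foxa1 line. The share of Foxa3 peaks with Hnf4alpha of their line rose from 4.17% in the lowest scoring 25% to 11.7% in the highest. It was 7.91% (7.35% to 8.51%) for Foxa3 peaks with a neighbour within 2 kb and 5.005% (4.39% to 5.70%) for those without. Of the 61 regions held by all 3 paralogs, 21 (34.4%, 23.7% to 47.0%) held Hnf4alpha of the Foxa3 line, 11 (18.03%) of the Foxa2 line and 9 (14.8%) of the Foxa1 line. These 61 regions are wide, with a median of 735 bp against 556 bp for Foxa1 and Foxa2 alone and 247 bp for Foxa3 alone, and the part of width in these shares was not tested.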

How the data were processed

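The submitters' processing notes name the build mm9 and the tools bedtools 2.16.2, MACS2 2.1.0 and BWA 0.6.2, without their roles. The authors deposited 1 BED list per library, with chromosome, start, end, name and a score of unstated scale. The use of the input libraries in peak calling is not given in the sources. Coordinates are 1-based. Lists were grouped by title. Overlap meant at least 1 bp, distances run between peak edges, and runs join peaks up to 2 kb apart. A pair at a shared site is the best scoring partner, used once. Shares carry 95% Wilson intervals and medians binomial order statistic intervals. Overlaps and distances were checked on simulated lists. Regions named are the best 3 of each list and the best 3 found in a single list. They include the best 5 by summed percentile at regions of all 3 lists, and at regions of Foxa1 with Foxa2 but without Foxa3. The others are the 3 largest rank differences each way, the run with the most peaks and the widest peak of each list. The text prints some of these. Regions on chromosome 18 were not named. No gene or sequence was assigned to a position, because the reference tables are on GRCm38. The members and settings were chosen with earlier results of these data known. The tools were SciPy 1.17.1, pandas 2.3.3, matplotlib 3.10.9, NumPy 2.4.6 and Python 3.11.15. Alternatives covered the overlap rule, the list length, a score minimum and the merging of close peaks.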

Additional observations from a re-analysis of the deposited data

How the results depend on the processing

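Of 80 recomputed values for 28 results, 43 moved outside the interval of the reported value and 35 stayed within it with the same sign. The other 2 changed sign within an interval that includes 0. With lists of equal length, the share of Foxa1 peaks at Foxa2 was 58.1% and of Foxa2 at Foxa1 57.9%. It was 0.408% for Foxa1 at Foxa3 and 0.728% for Foxa2 at Foxa3 and for Foxa3 at Foxa2. Under an overlap of 50% of the shorter peak, the shares were 1.16% for Foxa1 at Foxa3, 0.324% for Foxa3 at Foxa1, 1.60% for Foxa2 at Foxa3 and 1.30% for Foxa3 at Foxa2. With centres within 200 bp these 4 were 0.902%, 0.245%, 1.15% and 0.948%, and Foxa1 at Foxa2 was 83.9%. In the upper 50% of each list they were 0.990%, 0.3002%, 1.16% and 1.06%. With peaks up to 500 bp apart merged, Foxa3 at Foxa1 was 0.716% and Foxa3 at Foxa2 2.70%. Resizing every peak to 400 bp around its centre, an alternative added after seeing the data, left all 6 shares within their intervals. In each of these settings Foxa1 and Foxa2 shared far more with each other than either did with Foxa3.

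At equal length the median width was 567 bp for Foxa2 and 385 bp for Foxa3, and the median gap 275390 and 163372 bp. Foxa3 stayed the narrowest and the most closely spaced. The share with a neighbour within 2 kb was 3.29% for Foxa2 and 23.5% for Foxa3. After merging up to 500 bp it was 2.57%, 6.65% and 18.6% for Foxa1, Foxa2 and Foxa3, with a Foxa3 median width of 368 bp and gap of 65603 bp. Among non-overlapping peaks, the shares within 10 kb of the other list were 17.2% for Foxa1 to Foxa2, 10.1% for Foxa1 to Foxa3, 6.35% for Foxa3 to Foxa1, 11.4% for Foxa2 to Foxa3 and 19.2% for Foxa3 to Foxa2. At equal length these became 8.76%, 4.82%, 5.73%, 4.99% and 5.75%. Merging gave 5.64% for Foxa3 to Foxa1 and 16.7% for Foxa3 to Foxa2.

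The rho of Foxa1 and Foxa2 scores was 0.49 over 1988 pairs at equal length. With pairs formed anew from centres within 200 bp the rho changed sign for Foxa1 with Foxa3 (0.0712) and Foxa2 with Foxa3 (0.0282), and the cause was not tested. Hnf4alpha of the matching line at regions of Foxa3 alone was 4.90% with centres within 200 bp. In the upper 50% of all lists the Hnf4alpha shares were 4.93% for Foxa3 alone, 2.92% for Foxa1 alone and 9.55% for regions shared by Foxa1 and Foxa2. No test, paired or not, was run, because there was 1 library per group. Foxa and Hnf4alpha libraries were matched only by line, in the shares of the matching line. With unknown depth, peak numbers carry no correction for it.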
